A study of Mus musculus with 6 samples.

Results

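Inhibitory and self-recognition receptors of myeloid cells were followed in aortas of apolipoprotein E-deficient mice. They were chosen by name, with earlier results of these data known. They comprise 8 receptors (Cd72, Sirpa, Cd200r1, Siglec1, Cd33, Pilra, Lair1 and Cd84) and 2 ligands (Cd47 for Sirpa, Cd200 for Cd200r1), 10 genes of the 18193 named on the array. All probe sets that the platform annotation gives to these genes were used, 22 of 45037. Total RNA of whole aorta was hybridised to 6 single-colour oligonucleotide arrays, 3 from apoE-/- mice and 3 from wild-type mice, all aged 32 weeks and on the C57BL/6J background. The labels name no diet, sex or number of animals, and do not say whether replicates are separate animals, so the p-values here reflect the spread among these 6 arrays, part of which may be technical. In apoE-/- mice the gene is disrupted in the whole animal, and the RNA mixes vessel wall, infiltrating cells and attached tissue.

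Phagocytes carry receptors that read signals of healthy self and restrain activation. Many of them hold a tyrosine-based inhibitory motif (ITIM) in the cytoplasmic tail that, once phosphorylated, recruits the phosphatases Ptpn6 and Ptpn11. Cd47 on the surface of most cells engages Sirpa on macrophages as a signal against engulfment, and Cd200 on endothelium, neurons and lymphocytes engages Cd200r1, which lacks an ITIM and signals through Dok adaptors. In atherosclerosis the Cd47 and Sirpa pair is studied because plaques accumulate dead cells that macrophages fail to clear.

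The smooth muscle markers of the aortic wall were bright on every array, with 7 markers summing to 50043 to 61393 units in apoE-/- aorta and 56248 to 65596 units in wild-type aorta. Apoe itself read 239.5, 56.3 and 462.1 units on the apoE-/- arrays and 5686, 5625 and 4309 units on the wild-type arrays, which matched the labels. On the first principal component the apoE-/- arrays lay at -24.4, -9.77 and -33.4 and the wild-type arrays at 18.8, 24.0 and 24.9, so apoE-/- replicate 2 stood nearest to wild type. Beta-actin control probe sets, a measure of RNA integrity, had a 3′ over 5′ signal of 1.151 to 1.155 in apoE-/- and 1.164 to 1.209 in wild type, without overlap. The same ratio for Gapdh overlapped, at 0.705 to 0.816 in apoE-/- and 0.736 to 0.775 in wild type. The part of RNA integrity in the results below was not tested.

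Of the receptors, 5 rose in apoE-/- aorta (Cd72, Cd84, Lair1, Sirpa and Cd200r1), 2 had values that overlapped between genotypes (Cd33 and Pilra), and Siglec1 was too dim to be tested by gene. Neither ligand passed the test. The test was limma's moderated test on log2(intensity + 16), a scale that understates changes of dim probe sets, with Benjamini-Hochberg adjustment over 13031 genes, each represented by its probe set of highest mean log2 intensity. Genes were called at an adjusted p under 0.05. By that rule 3.15% of all genes tested were called higher and 0.483% lower (3.63% in either direction), and none of the 9 members tested was called lower or was lower at an unadjusted p under 0.05. Groups did not overlap, with apoE-/- higher, for 6 of the 9 members and for 10.9% of all genes tested, and with apoE-/- lower for none of the members and 13.8% of all genes. The median log2 change was 1.76 over the 9 members and -0.05 over all genes tested. These counts are a description, because the members were chosen with earlier results of these data known. The filter on low values also required a typical intensity near 119 units. The wild-type means of Cd72, Lair1 and Cd200r1, from 108.5 to 111.7 units, lay under that level, so these genes were tested through their apoE-/- values. In whole-aorta RNA more cells of a type and more RNA per cell cannot be told apart.

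**Figure D1:**
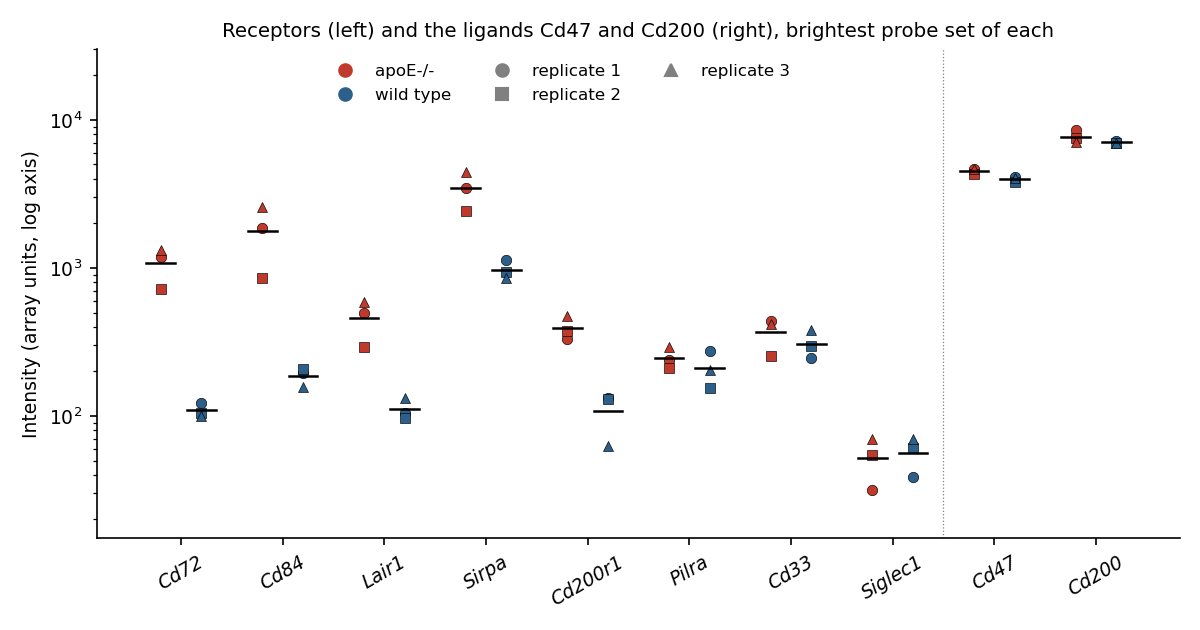
Intensity of the brightest probe set of each member on each array, in array units on a log axis, with apoE-/- arrays in red left of wild-type arrays in blue and bars at the group means (n = 3 each). The apoE-/- values lie above all wild-type values for Cd72, Cd84, Lair1, Sirpa, Cd200r1 and Cd47, and the groups overlap for Pilra, Cd33, Siglec1 and Cd200. Heights of different genes are not comparable.

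Cd72 is a C-type lectin-like receptor with an ITIM, best known from B cells, that binds the semaphorin Sema4d. Its single probe set read 1194, 722.0 and 1321 units on the apoE-/- arrays and 122.4, 105.4 and 100.4 units on the wild-type arrays. Every apoE-/- value was far above every wild-type value. The log2 change was 3.08 ± 0.22 (SE, n = 3 each, limma adjusted p = 4.68e-04), an 8.48-fold difference with a 95% interval of 5.96 to 12.1. Among the 13031 genes Cd72 ranked 17 by log2 rise.

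Cd84 is a member of the SLAM family that binds itself on a neighbouring cell and is found on macrophages, lymphocytes and platelets. Its brighter probe set read 1873, 854.5 and 2599 units in apoE-/- aorta and 194.2, 206.8 and 157.4 units in wild-type aorta. The groups were well separated, and the lowest apoE-/- value came from replicate 2. The log2 change was 3.02 ± 0.34 (limma adjusted p = 0.00298), 8.09-fold with a 95% interval of 4.69 to 13.9, and rank 22 among all genes. A second Cd84 probe set, under the filter, read 83.9 ± 12.4 units in apoE-/- and 87.9 ± 32.4 units in wild type (SD, n = 3), so the 2 probe sets of this gene disagreed.

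Lair1 carries ITIMs and binds collagens and the complement component C1q. Its representative probe set read 500.0, 293.7 and 588.9 units in apoE-/- aorta and 104.9, 97.6 and 132.7 units in wild-type aorta. The log2 change was 1.85 ± 0.26 (limma adjusted p = 0.00676), 3.62-fold with a 95% interval of 2.41 to 5.44. Both other Lair1 probe sets also had all apoE-/- values above all wild-type values, with log2 changes of 1.28 and 1.73, and neither passed in a fit over all probe sets (limma adjusted p = 0.146 and 0.108).

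Sirpa, the ITIM receptor of macrophages that reads Cd47, rose in apoE-/- aorta. Its representative probe set read 3445, 2436 and 4446 units in apoE-/- aorta and 1129, 937.2 and 860.4 units in wild-type aorta. All apoE-/- arrays lay above the wild-type range, with replicate 2 lowest among them. The log2 change was 1.77 ± 0.20 (limma adjusted p = 0.00304), 3.41-fold with a 95% interval of 2.47 to 4.70. The other 2 Sirpa probe sets had smaller log2 changes of 1.33 and 1.25, again without overlap, and the first of them passed in the fit over all probe sets (limma adjusted p = 0.0193 and 0.0605).

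Cd200r1 read 328.9, 373.4 and 474.0 units in apoE-/- aorta and 133.2, 130.1 and 62.3 units in wild-type aorta. Here replicate 1, not replicate 2, was the lowest apoE-/- array. The log2 change was 1.76 ± 0.28 (limma adjusted p = 0.0121), 3.38-fold with a 95% interval of 2.19 to 5.22, and it missed the threshold without apoE-/- replicate 3 (log2 change 1.62, limma adjusted p = 0.0600). A second probe set under the filter read 98.9, 112.1 and 163.1 units in apoE-/- and 26.4, 42.2 and 43.1 units in wild type, a log2 change of 1.39 (limma adjusted p = 0.0704 over all probe sets). Sirpa, Cd200r1 and Pilra have closely related activating paralogs, and how far their probes share signal with those was not tested.

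Pilra, an ITIM receptor of myeloid cells that recognises sialylated glycoproteins, read 237.8, 211.5 and 294.6 units in apoE-/- aorta and 274.1, 153.6 and 204.2 units in wild-type aorta. The values interleaved, and the log2 difference of 0.24 ± 0.23 did not pass (limma adjusted p = 0.621, 95% interval of the fold 0.825 to 1.70). Cd33, a sialic acid-binding lectin of myeloid cells, read 438.7, 255.8 and 415.6 units in apoE-/- aorta and 247.7, 295.0 and 378.8 units in wild-type aorta, with overlap. Its log2 difference was 0.24 ± 0.23 (limma adjusted p = 0.631, 95% interval of the fold 0.817 to 1.71). The intervals of both genes include no change and lie below those of the 5 receptors that rose.

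Siglec1, the sialic acid-binding adhesion receptor sialoadhesin of macrophages, had 3 probe sets, all under the filter and between 20.8 and 74.8 units on every array. The log2 differences were -0.11, 0.33 and 0.67 in the fit over all probe sets (limma adjusted p = 0.920, 0.661 and 0.434), and each pair of groups overlapped. No detection calls were used, so intensities this low are not shown to be signal, and a change of Siglec1 was not detectable here.

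Over all 22 member probe sets, 13 had every apoE-/- value above every wild-type value and none the reverse, against 8.48% and 10.7% of all probe sets. In the fit over all 45037 probe sets, 6 of the 22 were called higher and none lower, against 1.11% and 0.115% of all probe sets. Probe sets of the same gene share a target and are not independent. The members were chosen with earlier results of these data known, so these counts too are a description. That count of 6 dropped to 1 when apoE-/- replicate 1 or wild type replicate 3 was left out, and to 2 when wild type replicate 1 or wild type replicate 2 was left out.

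**Figure D2:**
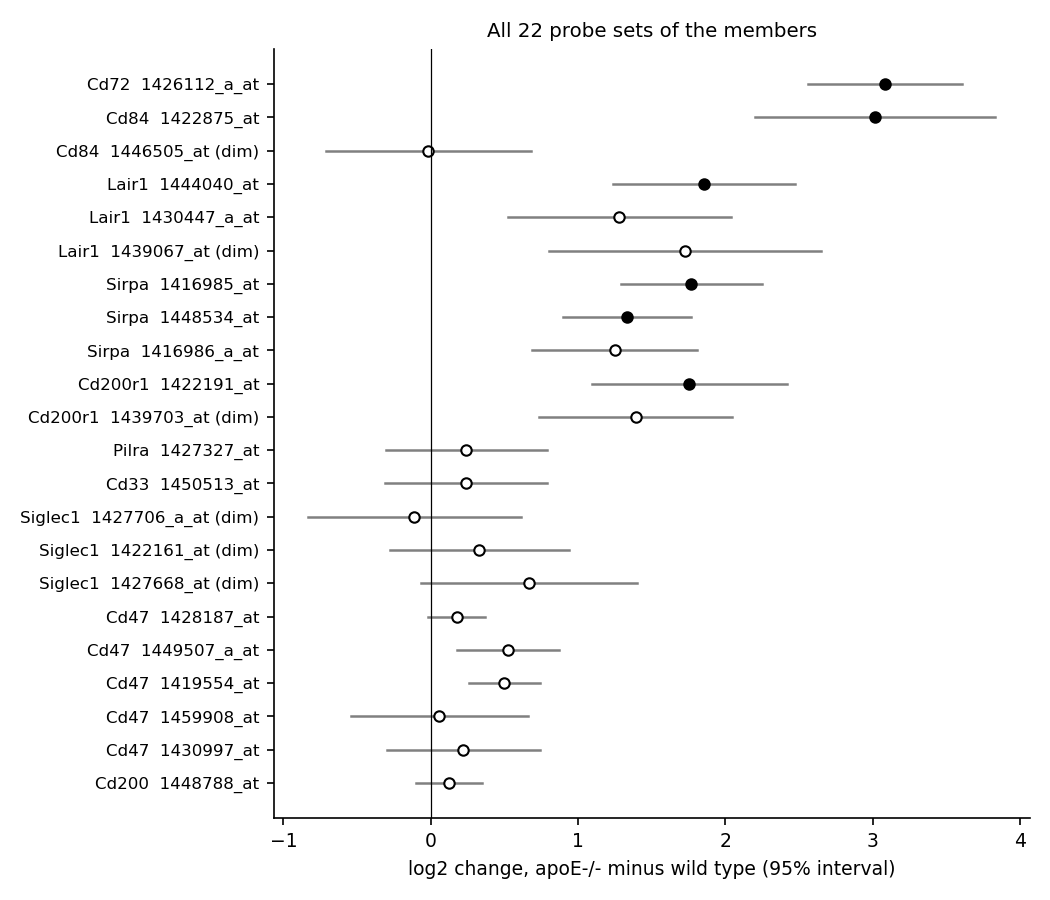
Log2 change (apoE-/- minus wild type, circles) with its 95% interval (lines) for the 22 probe sets, from the fit over all probe sets; filled circles have an adjusted p under 0.05 and "dim" marks the 6 probe sets under the filter. The brightest probe sets of Cd72 and Cd84 lie furthest right, at 3.08 and 3.02, while the probe sets of Cd47 lie between 0.06 and 0.53.

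By their representative probe sets the ligands differed little between genotypes. Cd47, the signal read by Sirpa, gave 4653, 4314 and 4625 units in apoE-/- aorta and 4138, 3810 and 4078 units in wild-type aorta for its representative probe set. These groups did not overlap, but the log2 difference was only 0.18 ± 0.08 and did not pass (limma adjusted p = 0.298, 95% interval of the fold 0.993 to 1.29). Cd47 had 4 further probe sets, whose values depended on the target. The log2 differences were 0.53 and 0.50 for the bright ones (limma adjusted p = 0.190 and 0.0760 over all probe sets), whose groups did not overlap. For the dim ones the differences were 0.22 and 0.06, with overlap. With the median of the gene's probe sets in place of the brightest, the log2 change was 0.50 and Cd47 was called higher (limma adjusted p = 0.0432).

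Cd200, a ligand of endothelium and neurons as well as lymphocytes, read 8480, 7522 and 7093 units in apoE-/- aorta and 7177, 7018 and 6950 units in wild-type aorta. The groups overlapped and the log2 difference was 0.12 ± 0.09 (limma adjusted p = 0.520, 95% interval of the fold 0.943 to 1.26). Of 8 endothelial markers, 7 had positive log2 differences, 3 were higher at an unadjusted limma p under 0.05 and 1 was called higher, Emcn at a log2 change of 0.76 ± 0.16 (limma adjusted p = 0.0386), and their summed level was 11155 to 13678 units in apoE-/- and 8262 to 11647 units in wild type. No endothelial marker passed when apoE-/- replicate 1, apoE-/- replicate 3, wild type replicate 1 or wild type replicate 3 was left out. Of 8 listed Schwann cell and neuron markers 4 were tested and none was called, with S100b nearest at 0.30 (limma adjusted p = 0.372).

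Receptor and ligand were then set against each other within each array, so that only a shift shared by both cancels. A shift of the receptor alone, as from more cells that carry it, does not cancel, and the part of cell number was not tested. With the brightest probe sets the receptor changes alone were 1.77 for Sirpa and 1.76 for Cd200r1. The log2 difference Sirpa minus Cd47 was -0.44 ± 0.38 in apoE-/- and -2.03 ± 0.18 in wild type (SD, n = 3 each), a gap of 1.59. With the median of each gene's probe sets, a setting chosen after seeing the data, the Sirpa gap was 0.83. For Cd200r1 minus Cd200 it was -4.25 ± 0.38 in apoE-/- and -5.89 ± 0.51 in wild type, a gap of 1.63. With the brightest probe sets, all apoE-/- arrays of both pairs lay above all wild-type arrays. The exact two-sided permutation test gave p = 0.1 for each pair (0.1 after adjustment over the 2 pairs), which is the smallest p that 3 arrays against 3 allow, so the gaps could not be called.

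**Figure D3:**
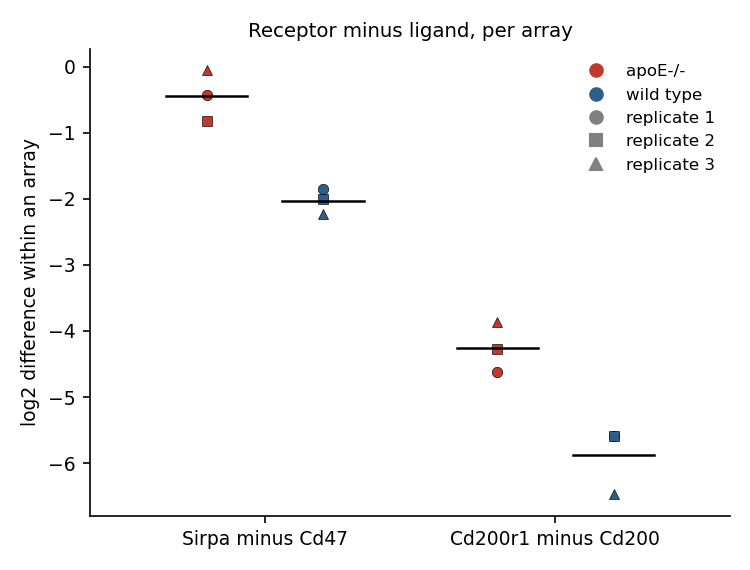
Log2 intensity of the receptor minus that of its ligand on each array, for Sirpa with Cd47 and Cd200r1 with Cd200; apoE-/- in red on the left of each pair, wild type in blue, bars at the means (n = 3 each). The group means are 1.59 and 1.63 apart in log2, and only this gap can be read, since levels of different probe sets are not comparable.

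The annotated upstream sequences of 3 receptors that rose (Cd72, Lair1 and Cd84) and of Cd33, which did not pass, are shown because rises shared by myeloid genes raise the question of common promoter letters. RefSeq entries for GRCm38.p6 were matched for 7 of the 10 members, not for Sirpa, Cd200r1 or Siglec1. Capitals mark GAGGAA, the core bound by the myeloid and B cell factor PU.1 (read as TTCCTC on the other strand), its longer form GAGGAAGT, or the AP-1 site TGAGTCA, each searched on both strands of the 250 bases before the start.

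Cd72 upstream 250 bases, chr4:43454627-43454876, minus strand: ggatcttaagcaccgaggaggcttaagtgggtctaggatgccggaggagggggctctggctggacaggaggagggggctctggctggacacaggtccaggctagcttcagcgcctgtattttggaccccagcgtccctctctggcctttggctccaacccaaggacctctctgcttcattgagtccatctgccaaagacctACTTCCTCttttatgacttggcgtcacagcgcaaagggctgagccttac

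Lair1 upstream 250 bases, chr7:4063205-4063454, minus strand: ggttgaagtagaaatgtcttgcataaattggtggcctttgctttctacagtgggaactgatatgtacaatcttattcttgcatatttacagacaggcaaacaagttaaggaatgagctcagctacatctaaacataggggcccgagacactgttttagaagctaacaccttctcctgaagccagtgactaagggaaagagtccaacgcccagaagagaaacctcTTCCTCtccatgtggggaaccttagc

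Cd84 upstream 250 bases, chr1:171839447-171839696, plus strand: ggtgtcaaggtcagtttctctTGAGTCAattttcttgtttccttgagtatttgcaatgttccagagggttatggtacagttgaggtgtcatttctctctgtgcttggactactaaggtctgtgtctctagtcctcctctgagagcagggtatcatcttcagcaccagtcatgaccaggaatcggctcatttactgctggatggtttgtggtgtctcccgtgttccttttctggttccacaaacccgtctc

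Cd33 upstream 250 bases, chr7:43533172-43533421, minus strand: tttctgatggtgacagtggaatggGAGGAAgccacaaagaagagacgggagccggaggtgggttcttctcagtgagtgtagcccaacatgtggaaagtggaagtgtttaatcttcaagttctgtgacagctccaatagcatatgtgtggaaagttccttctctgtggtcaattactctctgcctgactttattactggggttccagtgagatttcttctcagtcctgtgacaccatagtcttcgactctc

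Cd72 held GAGGAAGT on the opposite strand, 49 to 42 bases before the start, and 2.44% of 32851 annotated promoters held it. The shorter GAGGAA lies inside that match, and stood also in Lair1 (26 to 21 bases before the start, opposite strand), Cd33 (226 to 221) and Pilra (211 to 206), thus in 4 of the 7 members and in 23.3% of all promoters. Cd84 held TGAGTCA 229 to 223 bases before the start, as did 4.46% of all promoters. None of the 7 held the E-box CACGTG (6.02% of promoters), and Cd47 and Cd200 held none of these letters. The short form was present both in Cd72 and Lair1, which rose, and in Cd33 and Pilra, which did not pass.

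Macrophage markers rose along with the receptors. All 12 had apoE-/- values above all wild-type values and 10 were called higher, with Mpeg1 (log2 change 2.91 ± 0.24), Cd68 (2.87 ± 0.25), Itgam (1.74 ± 0.23) and Fcgr1 (1.73 ± 0.19) in front. Csf1r and Mertk, named here beyond the rule for list genes, were not called (0.50 and 0.12, limma adjusted p = 0.0999 and 0.498). The count called was 7 to 11 when single arrays were left out. The summed level of the 12 markers was 31840 to 44921 units in apoE-/- aorta and 16559 to 17615 units in wild-type aorta, and their median log2 change was 1.30. Cd72 and Cd84 had larger log2 changes than all 12 markers, and Sirpa, Lair1 and Cd200r1 larger ones than 10 of the 12, though log2 changes of different probe sets also differ with their background. These 5 receptors were set beside the markers because they were called, while the markers include genes that were not. Cd33 and Pilra, both at 0.24, lay below the marker median. On the apoE-/- arrays 12 of 12 markers and 4 of the 5 receptors were lowest on replicate 2. Highest on replicate 3 were 10 of 12 markers and all 5 receptors. The share of all risen genes with this order was not counted. On the first principal component, too, replicate 2 stood nearest to wild type (-9.77) and replicate 3 furthest from it (-33.4). The part of macrophage number in the receptor changes was not tested.

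**Figure D4:**
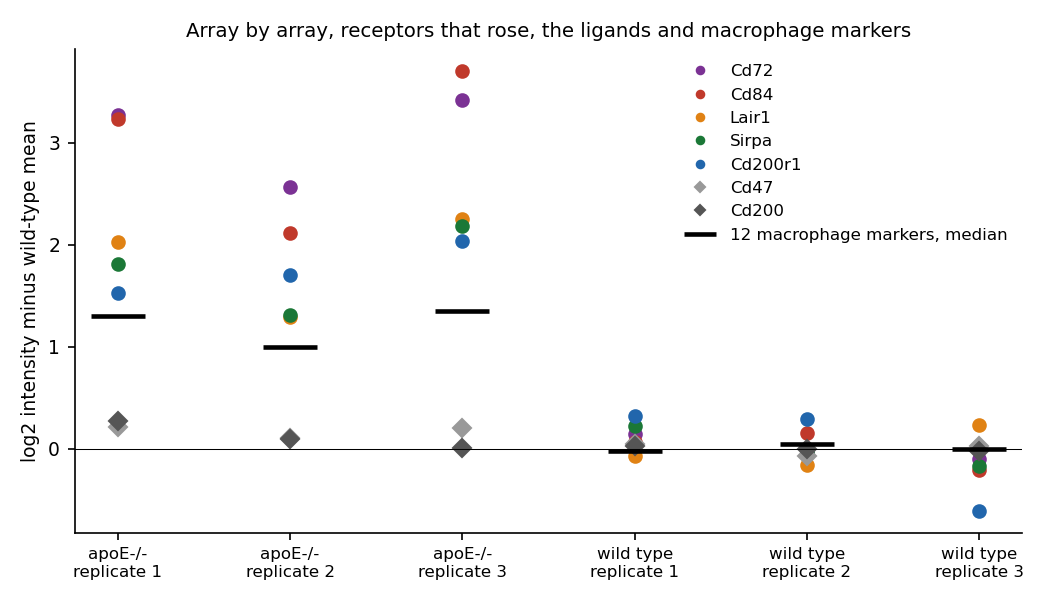
Log2 intensity minus the wild-type mean of the same gene, on each of the 6 arrays, for the 5 receptors that rose (circles), the ligands Cd47 and Cd200 (diamonds) and the median of 12 macrophage markers (black bars). On every apoE-/- array these 5 receptors, drawn because they were called, lie above the marker median. That median is 1.30, 0.997 and 1.35 on replicates 1, 2 and 3. Cd33 and Pilra, not drawn, lie below it on each of these arrays. The ligands, each by its brightest probe set, lie between 0.01 and 0.27 there.

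Since Cd72 is also a B cell gene and Cd84 is found on lymphocytes and platelets, markers of those cells were read beside them. Of 10 listed B cell markers 6 were tested, and none was called by limma (1, Ighm, at an unadjusted p under 0.05). The median log2 change of those tested was 0.09, and their sums overlapped (1825 to 4209 units in apoE-/-, 1170 to 1968 units in wild type). The highest of these sums rested on Ighm, the immunoglobulin mu chain, at 3181 units on apoE-/- replicate 3 (log2 difference 1.13 ± 0.45, limma adjusted p = 0.231). Cd79a and Ms4a1, core B cell genes named after their values were seen, differed by 0.03 and 0.15 in log2 (limma adjusted p = 0.964 and 0.710), with Cd79a at 127.7, 124.2 and 227.0 units in apoE-/- and 209.3, 107.2 and 148.1 units in wild type.

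Other blood cell markers that could be tested did not pass either. Tested were 3 of 10 listed T and NK cell markers and 5 of 6 platelet markers. So were 4 of 7 dendritic cell markers and 7 of 11 granulocyte and mast cell markers. The remaining listed markers lay under the filter or had no named probe set, so a change in them was not tested. None of the markers tested was called, and the median log2 changes of these lists were, in this order, 0.12, -0.23, 0.24 and 0.20. At an unadjusted limma p under 0.05 there was 1 platelet marker, Itga2b, 1 dendritic cell marker, Cd209a, and none of the others. Members nearest to the threshold were Cd8a (-0.25, limma adjusted p = 0.458), the platelet integrin Itga2b (-0.51, limma adjusted p = 0.264), Cd209a (0.65, limma adjusted p = 0.249) and the mast cell tryptase Tpsb2 (0.54, limma adjusted p = 0.342). Sums of the platelet markers were 6773 to 7851 units in apoE-/- and 6750 to 11291 units in wild type. None of the 7 smooth muscle markers was called, and all 7 had negative log2 differences with a median of -0.16, 3 of them at an unadjusted p under 0.05. Smtn, a smoothelin of contractile muscle, came nearest at -0.33 (limma adjusted p = 0.0858).

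Genes of the same signalling system were read from lists. Of 19 other inhibitory myeloid receptors, 11 were tested and 5 rose, with a list median of 0.64 in log2. The paired receptor Pirb read 608.4, 260.0 and 865.9 units in apoE-/- aorta and 65.1, 32.7 and 50.5 units in wild-type aorta (log2 change 3.06 ± 0.40, limma adjusted p = 0.00534). Its wild-type mean of 49.4 units lay under the filter, so it was tested through its apoE-/- values. Cd300a and Cd300lf, ITIM receptors for membrane lipids, rose by 1.52 ± 0.23 and 1.46 ± 0.27, and the sialic acid lectin Cd22, best known from B cells, by 1.30 ± 0.21. The fifth, Vsir, a checkpoint receptor of myeloid and T cells named here beyond the rule for list genes, rose by 1.10 (limma adjusted p = 0.0185). Leaving out apoE-/- replicate 1 reduced the 5 calls to 3, and leaving out wild type replicate 3 reduced them to 2.

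Some activating partners rose as well. Of 16 activating paralogs and adaptors, 8 were tested and 4 rose, with a median of 0.97. Tyrobp, the adaptor DAP12, read 5367, 3479 and 6975 units in apoE-/- aorta and 1141, 894.5 and 875.8 units in wild-type aorta (log2 change 2.38 ± 0.23, limma adjusted p = 0.00144). Cd300lb, which signals through such adaptors, rose by 1.94 ± 0.20, the Fc receptor gamma chain Fcer1g by 1.93 ± 0.25 and Cd300ld by 0.93 ± 0.13. Sirpb1a, Pilrb1 and Siglech, relatives of the members named after their values were seen, differed by 1.01, 0.53 and -0.08 in log2. None of them was called (limma adjusted p = 0.227, 0.236 and 0.874), and their groups overlapped. Cd200r3, an activating relative of Cd200r1 also named after its values were seen, lay under the filter at no more than 4.8 units on any array. Cd200r4, another such relative named after its values were seen, lay under the filter too and had no test. It read 223.6, 183.1 and 519.1 units in apoE-/- and at most 25.8 units in wild type.

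In the SLAM family 6 of 8 listed genes were tested and 3 rose beside Cd84, with a median of 0.86. Cd48, a widely expressed leukocyte surface protein, rose by 2.10 ± 0.35 in log2 (limma adjusted p = 0.0151), Slamf8 by 1.10 ± 0.24 (limma adjusted p = 0.0431) and Slamf9 by 0.97 ± 0.15 (limma adjusted p = 0.0125). Slamf8, with a wild-type mean of 98.5 units under the filter, was likewise tested through its apoE-/- values. No SLAM gene passed when apoE-/- replicate 1 was left out, and 1 did when apoE-/- replicate 3 or wild type replicate 3 was. Slamf6 and Slamf1, named after their values were seen, differed by -0.74 and -0.33 in log2 with groups that did not overlap, and neither passed (limma adjusted p = 0.142 and 0.272). Ly9 and Cd244a, also named after their values were seen, lay under the filter and had no test. Ly9 read 216.2, 49.8 and 316.6 units in apoE-/- and 10.3, 11.7 and 14.2 units in wild type. Cd244a read 98.3, 59.1 and 209.3 units in apoE-/- and 44.8, 43.5 and 16.8 units in wild type.

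Downstream of the receptors, 4 of 13 effectors tested rose, with a median of 0.27. The adaptor Fyb rose by 1.36 ± 0.24 in log2 (limma adjusted p = 0.0211), the kinase Fgr by 1.10 ± 0.23 (0.0392), the adaptor Grb2 by 0.75 ± 0.15 (0.0315) and the kinase Ptk2b by 0.68 ± 0.11 (0.0132). These are kinases and adaptors with roles beyond inhibitory signalling. The Dok adaptors Dok1 and Dok2, named after their values were seen, differed by -0.04 and 0.03 in log2 and were not called (limma adjusted p = 0.904 and 0.963). The phosphatases that ITIMs recruit, named after their values were seen, were not called: Ptpn6 differed by 0.27 and Ptpn11 by -0.17 (limma adjusted p = 0.588 and 0.369), and the lipid phosphatase Inpp5d by 0.80 (0.0790). Leaving out apoE-/- replicate 1 or apoE-/- replicate 3 ended all 4 calls, leaving out wild type replicate 1 or wild type replicate 2 reduced them to 2, wild type replicate 3 to 1, and apoE-/- replicate 2 raised them to 6.

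Other ligands of the receptors were tested for 17 of 18 genes, of which 5 rose, with a median of 0.18. The C1q chains C1qc, C1qb and C1qa, which Lair1 binds and macrophages make, rose by 2.17 ± 0.21, 2.04 ± 0.18 and 1.86 ± 0.15 in log2, and Thbs1, a Cd47 ligand, by 1.81 ± 0.15. The fifth was Sema4d, the Cd72 ligand, named here beyond the rule for list genes, at 919.1 to 1325 units in apoE-/- and 543.5 to 611.1 units in wild type (log2 change 0.95, limma adjusted p = 0.0110). None of the 8 collagen genes listed as Lair1 ligands passed. Nearest was Col1a1, named after its values were seen, at 0.56 with groups that did not overlap (limma adjusted p = 0.0619). Qpctl, the enzyme that matures Cd47 for Sirpa binding and also named after its values were seen, differed by 0.02 (limma adjusted p = 0.965).

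**Figure D5:**
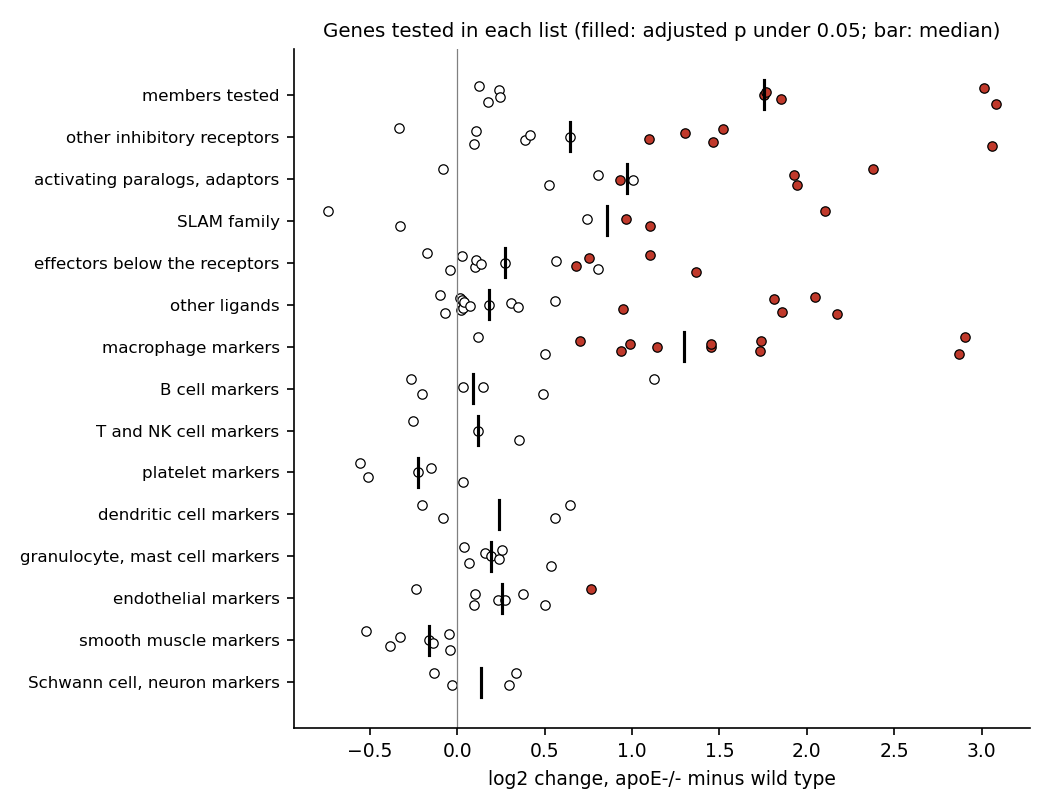
Log2 change (apoE-/- minus wild type) of each gene tested in the lists, 1 circle a gene, filled where the adjusted p was under 0.05, with a bar at the list median. The members tested fall into 5 filled circles at 1.76 or above and 4 open circles at 0.24 or below.

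Genes whose values over the 6 arrays were nearest to those of each receptor that rose were found by the root mean square distance of log2 values, each gene centred on its wild-type mean. For Cd72 the nearest of 13031 genes were Gpr176 (distance 0.16), Mpeg1 (0.17) and Ms4a7 (0.19), for Cd84 they were Cd68 (0.23), Ms4a7 (0.24) and Cd72 (0.24), and for Lair1 they were Pld3 (0.06), Itgam (0.11) and Evi2a (0.13). Sirpa lay nearest to Lgmn (0.09), Ly86 (0.10) and Gpr137b (0.10), and Cd200r1 to Plk2 (0.21), Pstpip1 (0.24) and Thbs1 (0.25). The distances weigh the size of the change as well as the order of the arrays.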

How the data were processed

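The authors deposited 1 linear intensity per probe set and array, and no detection calls were used. The software that made them is not given in the sources used here. With 2% of probe sets trimmed at each end, the mean was 500.002 units on all 6 arrays, and this common scale was kept. The number of arrays limits the precision. Gene names came from the platform annotation, updated through GRCm38.p6 gene identifiers (34754 of 34958 probe sets with 1 symbol; 932 carried several and were not used, 9160 had no entry).

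Intensities were taken as log2(intensity + 16). The 64 control probe sets and the lower 40% of the others by mean log2 value were left out. The brightest remaining probe set represented each gene (13031 genes), and a second fit took all 45037 probe sets with no filter. Both were fitted in R 4.3.3 with limma 3.58.1, with genotype alone in the model and the prior variance of eBayes following intensity. In simulated arrays of 13031 genes, the comparison found 86% of 100 genes set to change 2-fold and 99% of 100 set to change 4-fold. Of 193 calls there, 8 were false. These rates describe the simulated arrays alone. How far they hold for the measured arrays, whose spread and links between genes may differ from the simulation, was not tested.

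The members and lists were chosen with earlier results of these data known. Besides all members, the text names up to 4 called genes per list by size of change, or, in lists with no call, the gene of lowest p, and the 3 genes nearest to each called member; others are said to be named after their values were seen. Some list genes had no named probe set here and were not analysed. No batch or date is given in the labels. Alternatives were offsets of 1 and 64, quantile normalization, median centring, no filter, a 60% filter, a fit without the trend, a replicate block, array weights, probe sets combined by their median and leaving out each array.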

Additional observations from a re-analysis of the deposited data

How the results depend on the processing

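Cd72, Sirpa and Cd84 were called higher under all 16 alternatives, with log2 changes of 2.68 to 3.35, 1.33 to 1.996 and 2.67 to 3.47, and Lair1 under the 15 that tested it (1.54 to 2.14). Cd200r1 was called in 14 of 15, and its exception and the Cd47 call with the median of its probe sets stand in the report. None of the 9 members tested changed direction under the alternatives that tested it. Siglec1 was not followed through them. The count of members called higher was 4 to 5 when single arrays were left out and 3 with the lower 60% left out, where Cd200r1, Lair1 and Pilra were no longer tested; none was called lower under these 16 alternatives. Member probe sets called higher numbered 1 to 7 when single arrays were left out and 2 without the intensity trend. Genes called higher over the whole table numbered 145 to 545, and genes called lower 10 to 156, when single arrays were left out, against 410 and 63. Genes called lower were 41 with median centring, 31 without the trend and 121 with array weights. Replicate numbers did not pair the arrays: same-numbered deviations correlated at -0.10, -0.18 and -0.05, and none of the 6 arrays correlated best with its own number. The replicate block gave 18 genes called lower and 283 higher and left all 5 members called. The gaps between receptor and ligand, recomputed under the offsets, scalings, median of probe sets and single arrays left out, kept their direction there, at 0.83 to 1.78 for Sirpa and 1.30 to 1.82 for Cd200r1. The dim probe sets of Siglec1 and the wild-type levels of Cd72, Lair1 and Cd200r1 may lie at background, and the sizes of these rises depend on the offset (2.68 for Cd72 with an offset of 64 and 3.25 with an offset of 1).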
